A study of Saccharomyces cerevisiae with 24 samples.

Results

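The genes described here form the oxidative stress defence of budding yeast, Saccharomyces cerevisiae. They were taken by name as 9 loci, of which 7 were among the 4442 gene pairs with read counts: the regulator YAP1, the reductases TRR1 and GLR1, the peroxidases TSA1, GPX2 and CCP1, and the catalase CTT1. SOD2 and AHP1, which complete the 9, were not analysed here. The rule names loci and uses no measured value, but it was set with earlier results of these data known.

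Hydrogen peroxide and other peroxides arise in every respiring cell, and yeast removes them with catalases and with thiol peroxidases. The thiol enzymes are kept reduced by the thioredoxin and glutathione systems, which draw on NADPH. Yap1 is a transcription factor that moves to the nucleus when it is oxidised and switches on many of these genes, often together with Skn7, while the general stress factors Msn2 and Msn4 drive others such as CTT1.

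The hybrid was an a/alpha diploid from a cross of BY4741, a laboratory strain, with RM11-1alpha, a strain of vineyard origin (12 libraries). The co-culture held 2 haploid strains in the same flask, BY4741 and RM11-1a, both of mating type a (12 libraries). Both kinds of culture were grown without an added stress named in the labels, at 30 °C and 250 rpm from an OD600 of 0.1 to 1, in 4 technical-replicate cultures each. The hybrid therefore differs from the co-culture in ploidy and mating type as well as in having both genomes in each cell. In the co-culture the mixture of strains is measured in bulk, so that fewer cells of a strain and less RNA per cell cannot be told apart.

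Libraries held 165503 to 232428 reads in the hybrid, against 199838 to 227175 in the co-culture, counted only at sites where BY and RM differ. Libraries of a group were added up where every pair in the sum agreed within counting noise, which gave 6 summed replicates in each group, and n below is that number. Agreement within noise did not carry over from pair to pair: 6 such hybrid pairs and 13 such co-culture pairs stayed in separate replicates. With all linked libraries summed, 4 hybrid and 2 co-culture replicates remained, an alternative chosen after seeing the data. As there were 4 cultures, some summed replicates must share one. In total expression p-values measure only the spread between summed replicates, which may be technical. In the allelic fits the fitted spread beyond counting error (common dispersion) was only 9.766e-05. Their SEs, intervals and p-values for the members thus reflect little beyond read counts, also where replicate ratios spread more widely. The labels held in the counts: STE2, the receptor of a-type cells, had 141 reads in the hybrid, against 18145 in the co-culture. MET17, which is deleted in BY4741, had 149 RM and 0 BY reads in the hybrid (RM share 100%, exact 95% interval 97.6 to 100), against 206 RM and 0 BY reads in the co-culture (98.2 to 100). Intervals of shares cover counting error only. Since reads were counted at variable sites, levels are not compared between genes.

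The upstream regions of the members were searched for the sites of the main regulators in the reference sequence (RefSeq R64, from S288C, the lineage of BY). The RM sequence was not used here. The Yap1 motif TTACTAA, on either strand, lay within 500 bases before the start codon in 2 of the 7 measured genes, GPX2 and GLR1, and in 11.8% of 6000 such windows of all genes. The sites are shown because these are the measured members that hold this exact word, and no test relates them to the expression values. Variants of the word were not searched, so its absence does not show that a gene lacks a Yap1 site. All lie on the plus strand of the reference as printed, 5′ to 3′, with the motif in capitals. The GPX2 sites, 417 and 260 bases before the start codon, are at chrII:707100-707128 and chrII:707257-707285. The GLR1 site, 191 bases before the start codon, is at chrXVI:375300-375328.
GPX2 distal site: acggacgttacTTACTAAatgtacgacga
GPX2 proximal site: tatctagacaaTTAGTAAttccgatgaca
GLR1 site: tttgacgtcacTTAGTAAgcacgaccctt
The GPX2 proximal site and the GLR1 site hold the motif in reverse orientation, and none of the 3 overlaps another motif searched.

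The Msn2 and Msn4 motif AGGGG, on either strand, was found before 5 of the 7 genes and in 34.1% of all windows. CTT1, a standard target of these factors, had 3 copies and TSA1 had 2, with 1 each before CCP1, GPX2 and YAP1. The motif CCAAT of the Hap complex, on either strand, was found before 5 of the 7 genes and in 62.4% of all windows, with 3 copies before CCP1. A window can reach into a neighbouring gene, and a match is a run of letters, not a shown binding site.

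**Figure D1:**
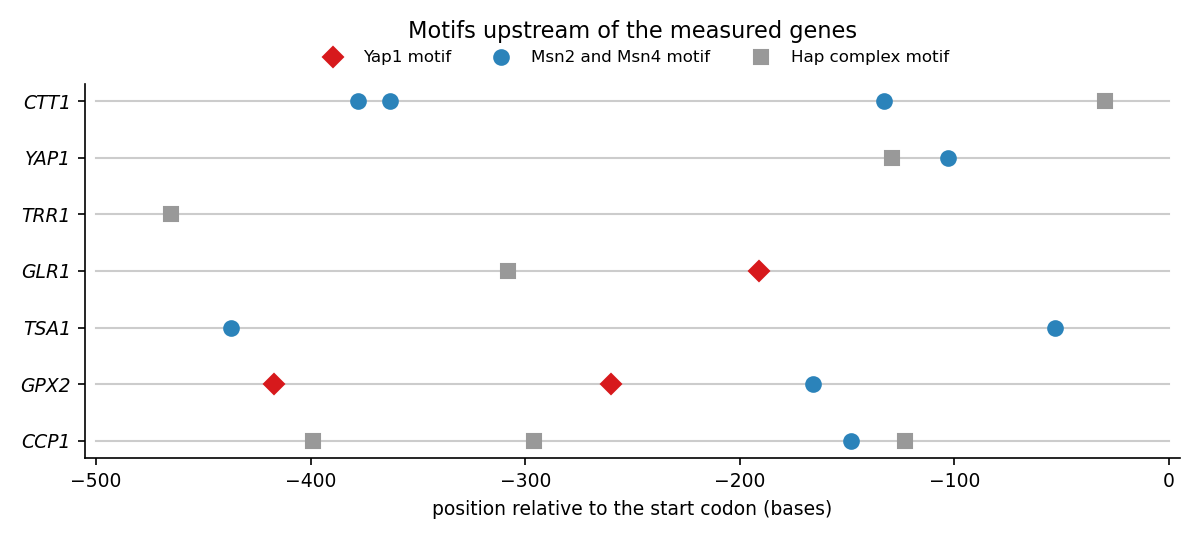
Positions of Yap1, Msn2 and Msn4, and Hap complex motifs in the 500 bases before the start codon (horizontal axis, bases, start codon at 0) of the 7 measured genes in the reference sequence. Exact Yap1 motifs are before GPX2 (417 and 260 bases) and GLR1 (191 bases). Of the motifs searched, the window of TRR1 holds only 1 of the Hap complex.

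In total expression, both alleles together, the fitted log2 folds of the defence genes, hybrid over co-culture, lay between -0.37 and 0.49. Of the 6 members with enough reads to test, 1 rose in the hybrid (YAP1), 1 fell (TRR1) and 4 did not pass edgeR's quasi-likelihood test with Benjamini-Hochberg adjustment over all 2793 genes. Over all those genes 61.3% were called, 29.4% higher and 31.9% lower in the hybrid. In this fit calls among the members were thus no more common than in the background. The median absolute log2 fold of the 6 members was 0.08 here, against 0.33 over all tested genes. Both depend on the scaling. With a trend by coding-sequence A share, described below, removed, 4 of the 6 members and 1471 of 2780 genes were called. The signed median log2 fold of the members was then 0.19, against 0.04 in this fit. Over all genes the signed median was 0.01 in this fit and -0.0 with the trend removed. Absolute medians were not taken with the trend removed. All 6 passed the read minimum in both groups.

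YAP1 (YML007W), the peroxide-sensing transcription factor, was the member that rose. Its level ran over 425, 490 and 546 CPM (lowest, median and highest; reads scaled to a common library size) in the hybrid, against 294, 346 and 364 CPM in the co-culture. The groups did not overlap. It was 1.41-fold higher in the hybrid (log2 0.49, SE 0.07, adjusted p = 4.69e-09 in edgeR). As scaled here, both alleles were higher in the hybrid. The RM allele stood at 381 to 548 CPM of RM reads there and 274 to 318 in the co-culture. The BY allele stood at 458 to 604 CPM of BY reads in the hybrid, against 299 to 448 in the co-culture. Levels of single alleles were not tested between groups. They were not corrected for the trend by A share described below, whose removal lowered the total log2 fold to 0.22.

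TRR1 (YDR353W), the cytosolic thioredoxin reductase, had the fewest reads of the tested members, 242 in the hybrid, against 291 in the co-culture. Its total level ran over 58.4, 96.6 and 115 CPM in the hybrid, against 75.9, 120 and 149 CPM in the co-culture, and the groups overlapped. The fall by 0.37 on the log2 scale (SE 0.14, adjusted p = 0.0229 in edgeR) was not called by DESeq2 (adjusted p = 0.061). It was also lost when hybrid replicate 2 (-0.31) or 4 (-0.34) or co-culture replicate 3 (-0.32), 4 (-0.28) or 6 (-0.29) was left out, and with all linked libraries summed (-0.33, adjusted p = 0.0754).

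**Figure D2:**
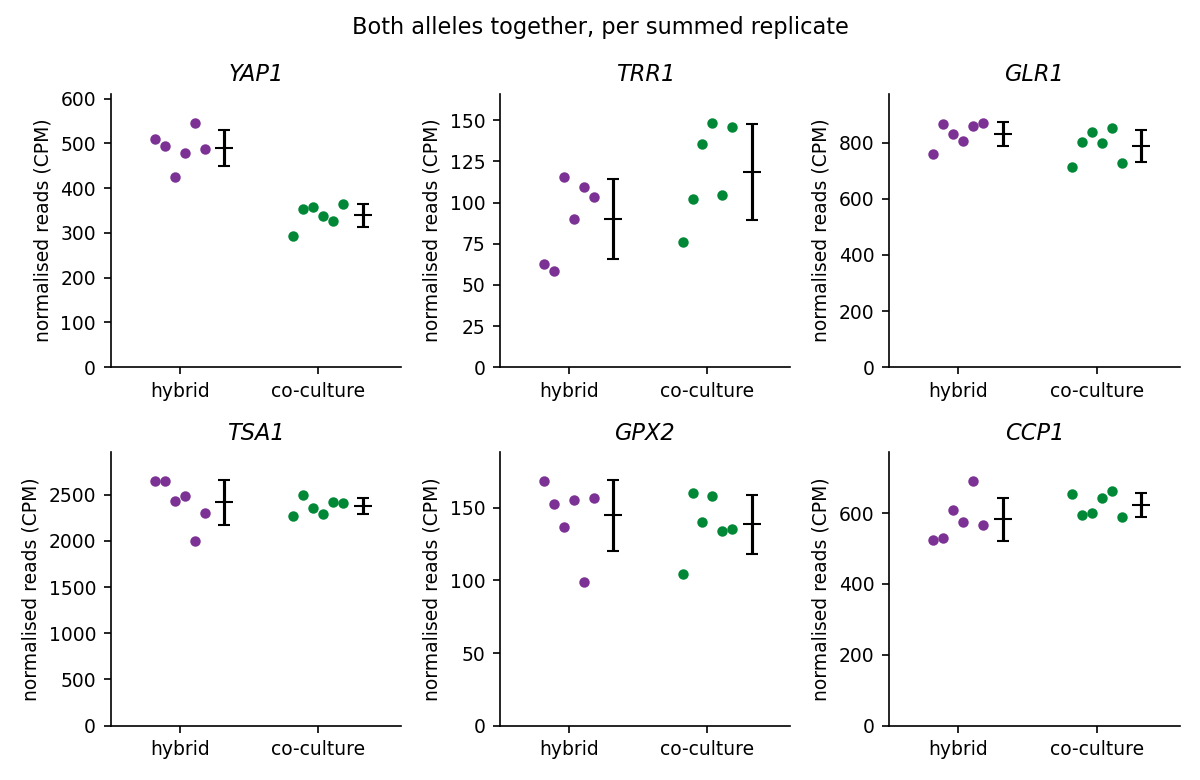
Normalised reads of both alleles together (CPM, vertical axes from 0) for the 6 tested members, 1 point per summed replicate in hybrid and co-culture (n = 6 each), with the mean and SD as a bar at the right of each group. The YAP1 points of the hybrid (425 to 546 CPM) all lie above those of the co-culture (294 to 364 CPM), and in the other panels the groups overlap.

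The other tested members had overlapping groups and did not pass. GLR1, the glutathione reductase, averaged 832 ± 43.3 CPM in the hybrid, against 788 ± 57.3 CPM in the co-culture (SD, n = 6 each). TSA1, the main cytosolic peroxiredoxin, averaged 2420 ± 243 CPM in the hybrid, against 2370 ± 86.6 CPM in the co-culture. GPX2, a thiol peroxidase of the glutathione peroxidase family, averaged 145 ± 24.5 CPM in the hybrid, against 139 ± 20.3 CPM in the co-culture. CCP1, the mitochondrial cytochrome c peroxidase, averaged 583 ± 61.2 CPM in the hybrid, against 623 ± 33 CPM in the co-culture. From the SE of the fit, the 95% intervals of the log2 fold were -0.04 to 0.18 for GLR1, -0.07 to 0.11 for TSA1, -0.16 to 0.28 for GPX2 and -0.22 to 0.02 for CCP1. CTT1 (YGR088W), the cytosolic catalase, had 11 reads in each group (4 RM and 7 BY in the hybrid, 7 RM and 4 BY in the co-culture), too few to test. Its ratio of hybrid to co-culture was 1.01 with an exact counting interval of 0.396 to 2.56.

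Across all genes the log2 fold in total expression moved with the share of A in the coding sequence (rank correlation 0.553 across 2780 genes). The share was 35.6% in YAP1 and 29.2% in TRR1, against a median of 32.6%. With that trend removed YAP1 stood at 0.22 (adjusted p = 0.00606) and TRR1 at -0.08 (adjusted p = 0.645). CCP1, TSA1 and GLR1, with A shares of 27.3%, 27.6% and 31.4%, then stood at 0.30, 0.40 and 0.16 and were called higher, whereas GPX2 stood at -0.03 and was not called. Without TMM scaling the median of all genes was 0.12 instead of 0.01, and 3 members were called higher (YAP1, TSA1 and GLR1) and 0 lower. Over all genes 1711 were called in the main fit, 1471 with the trend removed and 1763 without TMM scaling. YAP1 was called higher under each of these scalings, and TRR1 was called lower under neither alternative.

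Wider lists of oxidative stress genes were followed in the same test. Of 26 such genes in the files 20 had enough reads, and 2 were called higher, 10 lower and 8 did not pass, against 29.4% higher and 31.9% lower over all genes. With the A-share trend removed 4 were called higher and 8 lower, and without TMM scaling 4 higher and 9 lower. Each of these counts of higher genes includes SKN7, which met the read minimum only in the hybrid. Their median log2 fold was -0.31, against 0.01 over all tested genes, and -0.05 with the A-share trend removed. Of 5 tested targets of Yap1 outside the members, 4 fell, and with the A-share trend removed 2 fell and 1 rose. GRE2, a methylglyoxal reductase gene that Yap1 can activate, changed by -1.11 (SE 0.06), and by -0.96 with the trend removed. TRX2, a cytosolic thioredoxin gene known as a Yap1 target and counted here in the thioredoxin list, changed by -0.92 (SE 0.05), and by -0.51 with the trend removed. Both calls held (adjusted p = 1.33e-25 and 1.15e-21 for GRE2, 9.2e-29 and 1.56e-15 for TRX2, in edgeR).

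Of the genes counted as higher, MXR1 and SKN7, only MXR1 met the read minimum in both groups. MXR1, a methionine sulfoxide reductase gene, stood at 0.61 (SE 0.12). SKN7, the partner regulator of Yap1, had 167 reads in the hybrid, against 100 in the co-culture, and entered the test through the hybrid alone, where it met the read minimum. Its fitted value of 0.64 (SE 0.19) is therefore given as a description only. MSN2, which drives general stress genes, had 73 reads in the hybrid, against 46 in the co-culture and was not tested. Of the superoxide and peroxide genes 2 of 3 fell, SOD1, the cytosolic superoxide dismutase, at -0.32 (SE 0.05) and HYR1 at -0.47 (SE 0.09). SOD1 has an A share of 24.9%, and with the trend removed it stood at 0.18 and was called higher. HYR1 stayed at -0.47 and was still called lower. DOT5, the third gene of the list, was not called in the main fit (-0.37) and was called lower with the trend removed (-0.52). Of 8 thioredoxin and glutathione genes 4 fell and 1 rose, the same numbers with and without the trend. Both lists are short, and over all genes 31.9% were called lower and 29.4% higher.

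**Figure D3:**
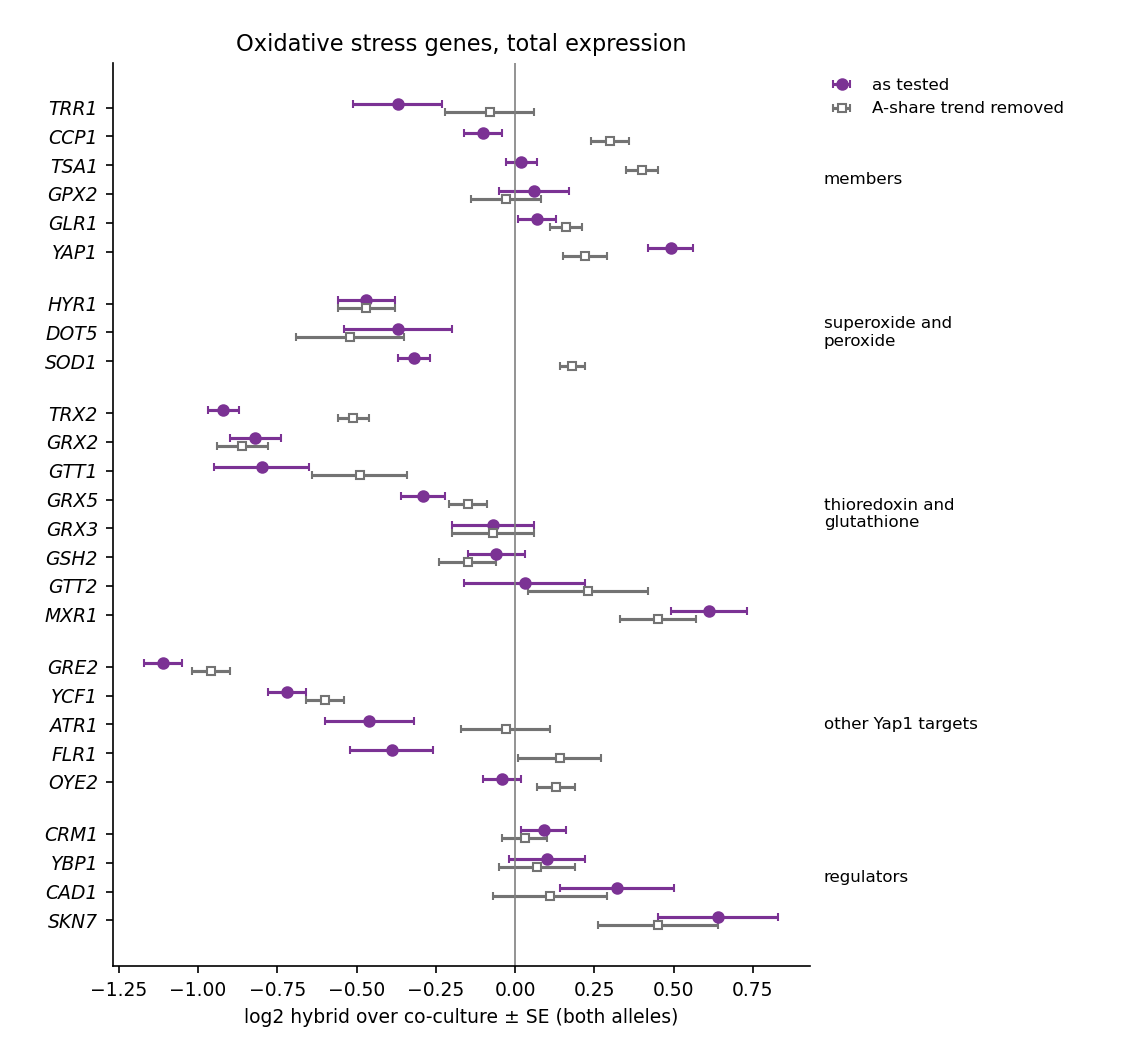
Log2 fold of hybrid over co-culture with its SE (horizontal axis) for the 6 tested members and 20 wider genes, as tested (filled) and with the A-share trend removed (open). GRE2 and TRX2 lie left of 0 under both (-1.11 and -0.96, -0.92 and -0.51), YAP1 right of 0 under both (0.49 and 0.22), and SOD1 changes side (-0.32 and 0.18).

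The second question was whether the RM and BY alleles of these genes differ when they share the cells of the hybrid. Since both alleles meet the same cell contents there, such a difference is commonly read as cis-acting. Of the 6 tested members 4 had more RM than BY reads after scaling (GLR1, CCP1, GPX2 and TSA1), 1 had fewer (YAP1) and 1 did not pass (TRR1). Over all 2661 tested gene pairs 20.1% were called, 10.4% with RM higher and 9.7% with RM lower, a smaller share than the 5 of 6 members. DESeq2 called 3 of the 6 members and 276 gene pairs in all. A call depends on read depth, which was not matched between members and background. The RM share of all reads in the hybrid was 49.7%. The median absolute log2 ratio was 0.40 in the members and 0.17 over all pairs.

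GLR1 (YPL091W), which regenerates reduced glutathione, had the largest imbalance. It had 1402 RM and 743 BY reads in the hybrid, an RM share of 65.4% (exact 95% interval 63.3 to 67.4). Its log2 RM-over-BY ratio ran over 0.63, 0.94 and 1.14 in the summed replicates (lowest, median and highest), so that RM was higher in each. The fitted ratio was 0.92 (SE 0.07, adjusted p = 2.71e-41 in edgeR), 1.89-fold.

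CCP1 (YKR066C), which reduces peroxide with electrons of cytochrome c, had 890 RM and 603 BY reads in the hybrid (RM share 59.6%, 57.1 to 62.1). Its ratio ran over 0.46, 0.58 and 0.71 and was fitted at 0.56 (SE 0.08, adjusted p = 1.31e-11). TSA1 (YML028W), with most reads of the members, had 3422 RM and 2813 BY reads (54.9%, 53.6 to 56.1). Its ratio ran over 0.20, 0.25 and 0.35 and was fitted at 0.28 (SE 0.04, adjusted p = 2.89e-12). In both genes RM was higher in every summed replicate.

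GPX2 (YBR244W) had 226 RM and 159 BY reads in the hybrid (58.7%, 53.6 to 63.7). Its ratio ran over -0.07, 0.60 and 1.59 and was fitted at 0.51 (SE 0.15, adjusted p = 0.00649). YAP1 was the one member with a lower RM allele, at 556 RM and 687 BY reads (44.7%, 41.9 to 47.5). Its ratio ran over -0.49, -0.32 and 0.26 and was fitted at -0.30 (SE 0.08, adjusted p = 0.00314). These replicate ratios straddled 0 in both genes, and both calls were lost with DESeq2 (adjusted p = 0.0891 for GPX2 and 0.151 for YAP1) and without hybrid replicate 4, the sum of 4 libraries (0.43, adjusted p = 0.106, and -0.22, adjusted p = 0.156). TRR1 had 113 RM and 129 BY reads, with a 95% interval of the log2 ratio from -0.56 to 0.18.

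The third question was how RM and BY compare when each genome sits in separate haploid cells, as in the co-culture. Of the 6 members 2 were higher in RM (TSA1 and GLR1), 3 were lower (GPX2, TRR1 and YAP1) and 1 did not pass (CCP1). Over all 2661 gene pairs 40.3% were called, 21.8% with RM higher and 18.5% with RM lower, again a smaller share than the 5 of 6 members. Read depth was again not matched. The median absolute ratio was 0.51 in the members and 0.26 over all pairs. All 5 calls remained under each alternative that was run, DESeq2 and the removal of any 1 summed replicate included.

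TSA1 had 3600 RM and 2171 BY reads in the co-culture, and its log2 ratio ran over 0.37, 0.50 and 0.84. The fitted ratio was 0.52 (SE 0.04, adjusted p = 6.55e-38 in edgeR), 1.43-fold. GLR1 had 1155 RM and 765 BY reads, with ratios of 0.17, 0.36 and 0.69, fitted at 0.38 (SE 0.07, adjusted p = 1.93e-07). RM was higher in every summed replicate for both genes.

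GPX2 went the other way, with 143 RM and 203 BY reads in the co-culture. Its ratio ran over -0.94, -0.70 and -0.33, so that RM was lower in each summed replicate, and was fitted at -0.71 (SE 0.16, adjusted p = 4.3e-05). YAP1 had 374 RM and 455 BY reads, with ratios of -0.61, -0.53 and -0.03, fitted at -0.49 (SE 0.10, adjusted p = 1.02e-05). RM was lower in every summed replicate for YAP1 as well. TRR1 had 127 RM and 164 BY reads, with ratios of -0.83, -0.62 and 0.05, fitted at -0.58 (SE 0.17, adjusted p = 0.00297). CCP1 had 816 RM and 677 BY reads, close to the RM share of all reads in the co-culture (54.8%), and a 95% interval of the log2 ratio from -0.09 to 0.21.

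**Figure D4:**
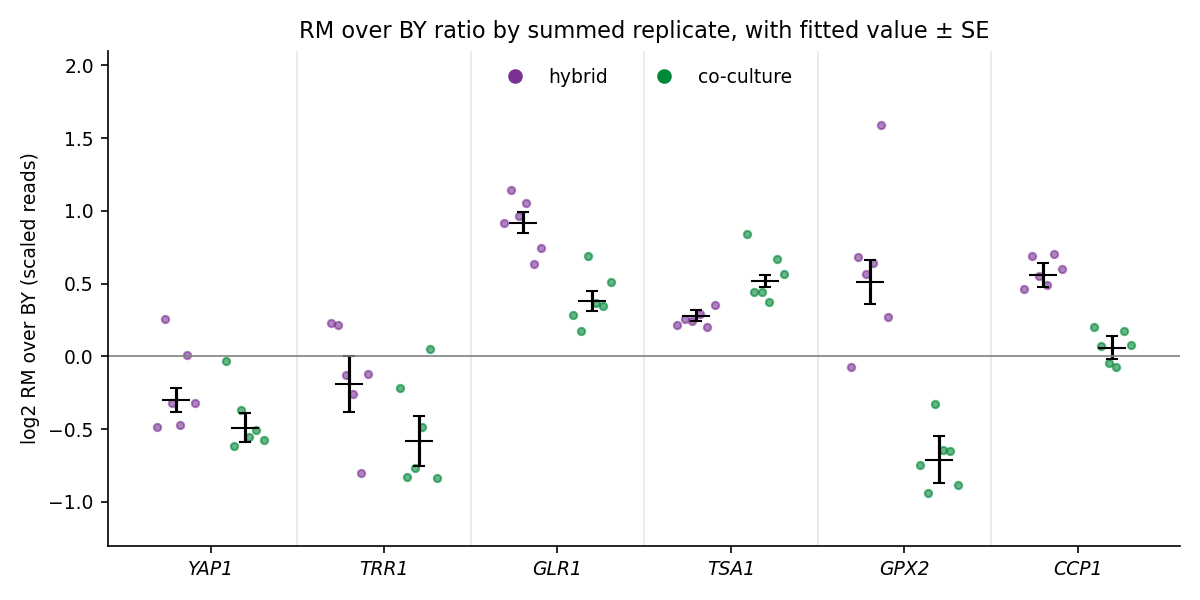
Log2 ratio of RM to BY reads after scaling (vertical axis) for the 6 tested members, with 1 point per summed replicate (n = 6 each) and the fitted ratio with its SE as a bar, hybrid left of co-culture. GPX2 is fitted above 0 in the hybrid (0.51) and below it in the co-culture (-0.71), while GLR1 and TSA1 are above 0 and YAP1 below 0 in both.

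The difference between these ratios was then tested itself, hybrid minus co-culture, in the same fit. By the usual reading, a strain difference in co-culture joins effects of the allele and of the rest of the genome, and the hybrid keeps those of the allele. The trans component in the usual sense is the negative of the difference given here. Of the 6 members 3 had a higher RM-over-BY ratio in the hybrid (GPX2, GLR1 and CCP1), 1 had a lower one (TSA1) and 2 did not pass (TRR1 and YAP1). Over all 2661 gene pairs 20.7% were called, 8.76% higher and 12% lower, a smaller share than the 4 of 6 members. Whether these shares are particular to the members was not tested. These 4 calls remained under each alternative that was run.

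GPX2 had the largest fitted difference of the members, with a ratio of 0.51 in the hybrid, against -0.71 in the co-culture. The difference was 1.22 (SE 0.22, adjusted p = 5.48e-07 in edgeR), 2.33-fold, and the replicate ratios of hybrid (-0.07 to 1.59) and co-culture (-0.94 to -0.33) did not overlap. GPX2 was one of 51 among 2661 gene pairs (1.92%) called in opposite directions in hybrid and co-culture, and its hybrid call was lost under the settings given above. The RM allele stood at 149 to 192 CPM of RM reads in the hybrid, against 79.8 to 127 in the co-culture, without overlap. The BY allele stood at 49.5 to 175 CPM of BY reads in the hybrid, against 134 to 217 in the co-culture, with overlap.

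CCP1 had a ratio of 0.56 in the hybrid, against 0.06 in the co-culture, a difference of 0.50 (SE 0.11, adjusted p = 5.88e-05). The replicate ratios of hybrid (0.46 to 0.71) and co-culture (-0.07 to 0.20) did not overlap. As scaled here the BY allele separated the groups, at 412 to 525 CPM of BY reads in the hybrid, against 578 to 670 in the co-culture. The RM allele overlapped, at 617 to 856 CPM of RM reads in the hybrid, against 594 to 702 in the co-culture. In order of mean level the RM allele of the hybrid, the RM allele of the co-culture and the BY allele of the co-culture overlapped as neighbours, and the BY allele of the hybrid stood apart below them. Allele levels were not corrected for the A-share trend, whose removal moved the total log2 fold of CCP1 from -0.10 to 0.30. Which allele separates the groups may depend on that trend, and this was not tested. CCP1 was one of 58 gene pairs called in the hybrid and in the difference but not in the co-culture, of 2661 (2.18%).

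GLR1 had a ratio of 0.92 in the hybrid, against 0.38 in the co-culture, a difference of 0.53 (SE 0.10, adjusted p = 7.35e-07). The replicate ratios overlapped (0.63 to 1.14 in the hybrid, against 0.17 to 0.69 in the co-culture), and so did the groups for either allele. TSA1 was the member with the smaller RM excess in the hybrid, 0.28 there and 0.52 in the co-culture, a difference of -0.24 (SE 0.05, adjusted p = 0.000198). Its replicate ratios of hybrid (0.20 to 0.35) and co-culture (0.37 to 0.84) did not overlap, while the levels of either allele did. For YAP1 the 95% interval of the difference was -0.07 to 0.45 and for TRR1 -0.11 to 0.89, and the TRR1 interval contains the value fitted for GLR1.

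**Figure D5:**
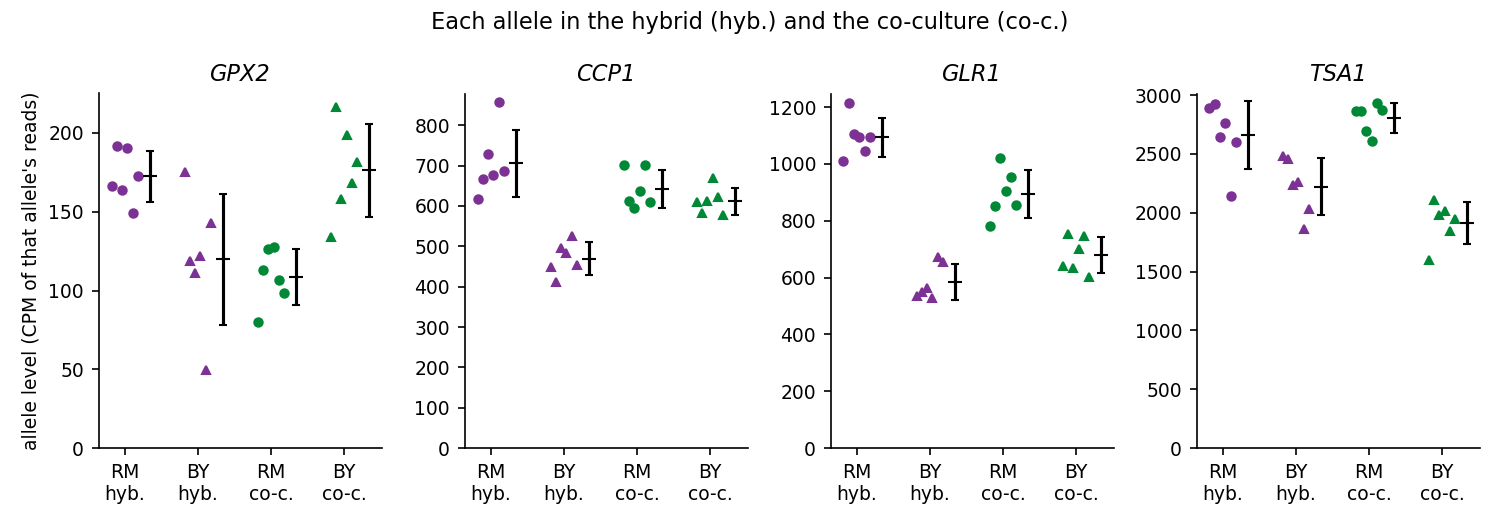
Level of each allele (CPM of that allele's own reads, vertical axes from 0) for GPX2, CCP1, GLR1 and TSA1 in hybrid and co-culture, with circles for RM, triangles for BY, 1 point per summed replicate (n = 6 each) and the mean and SD as a bar. The RM allele of GPX2 is higher in the hybrid (149 to 192) than in the co-culture (79.8 to 127), and the BY allele of CCP1 is lower in the hybrid (412 to 525) than in the co-culture (578 to 670). These levels are not corrected for the A-share trend.

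Allelic ratios were also followed in the wider lists. Of the 20 tested wider genes 2 were higher and 5 lower in RM in the hybrid, where 20.1% of all pairs were called. DESeq2 called 1 higher and 2 lower there, and 276 pairs in all in place of 534. In the co-culture 2 were higher and 8 lower, where 40.3% of all pairs were called. DESeq2 called 2 higher and 6 lower there, and 757 pairs in all in place of 1072. GRE2 had a ratio of -0.61 (SE 0.09) in the hybrid, against -1.06 (SE 0.07) in the co-culture. CAD1, a regulator related to Yap1, had -0.98 (SE 0.24) in the hybrid, against -1.77 (SE 0.29) in the co-culture, from 155 and 116 reads. GRX2, a glutaredoxin gene, and HYR1, a peroxidase gene that relays peroxide to Yap1, were the ones with RM higher in the hybrid, at 0.42 (SE 0.12) and 0.38 (SE 0.13). The HYR1 call was lost with DESeq2 (adjusted p = 0.205) and without hybrid replicate 3, 4 or 6, and the GRX2 call without hybrid replicate 3. In the co-culture those with RM higher were SOD1 at 0.46 (SE 0.04) and GRX5, a mitochondrial glutaredoxin gene, at 0.33 (SE 0.08), and TRX2 was lower at -0.43 (SE 0.04). SKN7 did not pass in either.

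In the difference between hybrid and co-culture 4 of the 20 had a higher ratio in the hybrid and 1 a lower one, against 8.76% higher and 12% lower over all pairs. DESeq2 called 3 higher and 1 lower, without HYR1 (adjusted p = 0.107), and 302 pairs in all in place of 552. Without TMM scaling 6 were higher and 1 lower, but the median difference over all pairs was then 0.09 instead of -0.01. OYE2, an NADPH oxidoreductase gene, stood at 0.58 (SE 0.10, adjusted p = 8.39e-08 in edgeR) and GRE2 at 0.46 (SE 0.12, adjusted p = 0.00121). SOD1 stood at -0.44 (SE 0.06, adjusted p = 4.17e-14), with a ratio of 0.02 in the hybrid, against 0.46 in the co-culture.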

How the data were processed

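Polyadenylated RNA was bound to oligo-dT beads and primed with oligo-dT, per the labels. The deposited values are raw read counts per allele at sites that differ between BY and RM, per the file headers. As to aligner, build, read filters and strand, the authors' choice is not given in the sources used here.

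Libraries of a group were summed where allele counts agreed (chi-square over alleles with at least 20 reads, p of at least 0.05, complete linkage), after 38 of 66 library pairs in the hybrid and 16 of 66 in the co-culture had differed with p under 0.001. Total counts were fitted in edgeR 4.0.16 (R 4.3.3) with TMM scaling and a quasi-likelihood F test, keeping genes that averaged 10 or more reads a library in either group. Allele counts were fitted jointly, with the summed library as block and each allele column scaled, for gene pairs with at least 100 reads in each group. Adjusted p-values used a threshold of 0.05 over all genes tested. SEs follow from the fold and its F. The code was tested on simulated data. DESeq2 1.42.0, other filters, scalings and units, the A-share trend and each replicate left out were the alternatives, to which summing all linked libraries was added after seeing the data.

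Members and lists were chosen with earlier results of these data known. Named genes are all members and, of the wider lists, the 2 smallest p in each direction per comparison plus SKN7 and MSN2. In total expression the tested superoxide and peroxide genes are named as well. Library numbers did not pair samples: correlations of same-numbered libraries ran from -0.022 to 0.066 over 12 pairs. No member overlaps another annotated gene. Identical runs with the nearest copies reached 23 bases (GPX2 with HYR1), 20 (TRR1 with TRR2) and 14 (TSA1 with TSA2).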

Additional observations from a re-analysis of the deposited data

Results flagged for a closer look

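The RM-over-BY ratio differed between hybrid and co-culture in 4 members, by the test of the difference itself (edgeR, adjusted over all gene pairs). The difference, hybrid minus co-culture on the log2 scale, was 1.22 for GPX2, 0.53 for GLR1, 0.50 for CCP1 and -0.24 for TSA1. Among 24 sets of 6 replicate values (total level and allelic ratio of the tested members in each group) no replicate stood apart by Dixon's criterion, for which chance alone gives about 1 in 20.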

How the results depend on the processing

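The YAP1 rise in total expression and the allelic calls of GLR1, CCP1 and TSA1 kept direction and call under each alternative run. In total expression 1 member was called higher and 1 lower. Without TMM scaling 3 were higher and 0 lower, with DESeq2 0 were lower, and with the A-share trend removed 4 were higher and 0 lower. Over all genes 1711 were called in the main fit, 1763 without TMM scaling, 1515 with DESeq2 and 1471 with the trend removed. CCP1 changed sign without TMM scaling (0.01) and with the trend removed (0.30), and GPX2 with the trend removed (-0.03). Leaving out replicates gave 0 to 1 members lower, and all linked libraries summed gave 0 lower. In the hybrid ratio DESeq2 called 0 members lower and 276 gene pairs in place of 534, and replicates left out gave 0 to 1 members lower. In the co-culture ratio CCP1, not called, stood at -0.02 without TMM scaling. For the difference of ratios DESeq2 called 302 gene pairs in place of 552. With all 12 libraries a group and a replicate block by library number, 1777 genes were called in total expression, with 1 member higher and 1 lower, against 1755 without the block, and 3 of 12 libraries correlated best with their own number. The cause of these shifts was not tested. Of the members, depth limits CTT1 and then TRR1 most.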
